A study of Drosophila melanogaster with 16 samples.

Results

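The libraries of the December set that were labelled PARP knockdown (KD) were compared with the WT libraries of the same month, 3 against 3, over all genes of the count table. S2 cells, a cultured line of Drosophila melanogaster embryos with hemocyte (blood cell) features, were the material of every library. The KD cultures received siRNA against PARP-1, and the sources used here do not say whether the WT cultures received a control siRNA. A gene was a member when its raw counts summed to at least 10 over the 6 libraries, which kept 11263 of the 17737 genes in the table. The 3 PARPi libraries of December (10 µM PJ34, a PARP inhibitor, for 16 h) entered the estimate of spread and the scaling between libraries, but not the contrast. Another 3 WT and 4 KD libraries, labelled October, served as a second set of libraries with the same contrast. The study calls its sequencing experiments independent, while neither it nor the labels tie the libraries of a group to separate cultures, so the p-values measure the spread between these libraries, part of which may be technical.

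PARP1 is an abundant nuclear enzyme that uses NAD+ to attach chains of poly(ADP-ribose) to histones, to other chromatin proteins and to itself. It binds nucleosomes and promoters, loosens chromatin at heat shock loci in flies, and acts in DNA repair, in splicing and in the pausing of RNA polymerase II. In Drosophila it is also known from immune and hormone-induced loci. S2 cells phagocytose bacteria, secrete extracellular matrix and respond to bacterial cell wall through the Toll and Imd pathways, so immune, metal, matrix and metabolic genes were read here beside the general machinery of the cell.

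Library totals of counts on genes lay between 77671859 and 90439074, so counting error is small for most of the members. The mRNA of Parp1, on chromosome 3R from 3461351 to 3587054 on the minus strand of BDGP6, was at 171, 182 and 158 CPM in WT and 157, 168 and 136 CPM in KD. The ranges overlapped, with a log2 fold change of -0.15 and a standard error of 0.08 (adjusted p = 0.288). Adjusted p-values here are those of the edgeR quasi-likelihood test after Benjamini-Hochberg correction. The labels state that depletion was checked on the protein by western blot, and the mRNA does not check the labels, so every direction rests on the label KD. Mitochondrial ribosomal RNA took between 9.13% and 10.7% of the counts in WT and between 7.90% and 9.11% in KD. Its part in the results was not tested.

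Hemocyte markers were present: of 9, all passed the limit on counts, 7 had a mean of at least 1 CPM (a gene's counts relative to its library size, on the TMM scale), and their summed level was between 848 and 972 CPM in WT and between 777 and 837 CPM in KD. NimC1, a phagocytosis receptor of plasmatocytes, was near 0 in every library, with at most 0.0494 CPM. Of the markers of other cell types, the neuron list summed to between 60.8 and 69.7 CPM over the 6 libraries, the muscle list to between 14.6 and 18.2 CPM, and the fat body list to between 82.9 and 95.9 CPM, with 98.5% of the last from the lipid enzyme gene Lpin. The germline list (365 to 422 CPM) and the ovarian somatic list (898 to 1120 CPM) came to 96.1% from blanks and to 90.6% from zfh1. The epithelial disc list summed to between 1110 and 1180 CPM in WT and between 1180 and 1240 CPM in KD, with 83.4% from ap. In these bulk libraries, fewer cells of a type and less RNA per cell cannot be told apart.

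More genes were lower than higher in KD, and most changes were small. Of the 11263 genes, 849 had an adjusted p below 0.05, a share of 7.54%. Of these, 208 were higher (1.85% of all genes tested) and 641 were lower (5.69%). The median change was 1.33-fold among the genes called higher and 1.31-fold among those called lower, and 144 and 565 of them changed by less than 1.5-fold. At a mean of at least 1 CPM, only 5 of the higher and 8 of the lower genes moved by more than 2-fold. KD and WT libraries did not overlap in 207 of the higher and 621 of the lower genes, against 25.2% of all genes tested. The median log2 fold change over all genes was 0.0049.

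Higher and lower genes differed in the kind of gene. Genes called lower had a median of 48.6 CPM and 854 bases of exon, and genes called higher 12.2 CPM and 3104 bases. The median over all genes tested was 1838 bases of exon. Among protein-coding genes of at least 1 CPM, 3.12% were called lower and 4.67% higher in the lowest decile by level. In the highest decile by level these shares were 16.6% and 0.709%. The median log2 fold changes of these 2 deciles were 0.0575 and -0.08. Protein-coding genes made up 198 of the higher and 597 of the lower calls. Of 972 annotated ncRNA genes, 37 were lower and 5 higher, while 0 of 112 snoRNAs and 0 of 22 tRNAs were called by edgeR (14 and 4 at an unadjusted p below 0.05, and 0 by DESeq2). The number of calls depended on single libraries: without KD replicate 1, KD replicate 3, WT replicate 2 and WT replicate 3 it was 251, 179, 418 and 235. With library sizes taken as totals without the 20 genes of most counts, instead of the TMM factors, the median of all genes moved to 0.141 and the split turned to 1035 higher and 269 lower, so the directions below are relative to the TMM scale.

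The 12 largest rises included genes of a neuropeptide precursor, a serotonin transporter and a Wnt receptor. Nplp1, which encodes a neuropeptide precursor, was at 0.875, 0.436 and 0.506 CPM in WT and 1.01, 1.66 and 1.77 CPM in KD. All 3 KD libraries were above all 3 WT libraries, KD replicate 1 the least, with a 2.44-fold rise (log2 fold change 1.29, adjusted p = 0.0075). The genes with the largest changes and those named by rule for a gene list had to show no overlap of KD and WT libraries. Their lack of overlap is therefore not a separate result. SerT, the transporter that takes up serotonin, was at 17.9, 14.7 and 18.3 CPM in WT and 28.1, 31.4 and 29.8 CPM in KD, a 1.75-fold rise (log2 fold change 0.81, adjusted p = 0.000263). This gene also had the smallest p of the higher genes. CBP, a calcium-binding protein gene, was at 8.44, 4.7 and 5.68 CPM in WT and 13.7, 14.5 and 12.1 CPM in KD, a 2.14-fold rise (log2 fold change 1.10, adjusted p = 0.000584) with WT replicate 1 the highest of the WT libraries. The remaining genes among the 12 largest rises were CG9782 (1.17), CNMa (1.03), lncRNA:CR44138 (1.01), Orcokinin (0.87), drl (0.80), Spn88Eb (0.78), sug (0.78), CG12520 (0.78) and 28SrRNA-Psi:CR45859 (0.77), given with their log2 fold changes. Of these, drl encodes a Ryk-family receptor for Wnt5, Spn88Eb a serpin and sug (sugarbabe) a sugar-induced transcription factor of the Gli-similar type. The 28SrRNA-Psi:CR45859 locus is a copy of ribosomal RNA, and its count is uncertain because near-identical copies can share reads.

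The largest falls were led by antimicrobial peptide genes and a metallothionein. Lip4, a lipase gene on chromosome 2L from 10527572 to 10531778 on the plus strand, was at 4.22, 4.52 and 4.36 CPM in WT and 2.2, 2.5 and 2.4 CPM in KD. KD and WT libraries did not overlap, as the choice of genes required, and the fall was 1.85-fold (log2 fold change -0.89, adjusted p = 0.000468). An unnamed gene, CG31337, was at 2.6, 2.74 and 2.69 CPM in WT and 1.17, 1.3 and 1.49 CPM in KD, a 2.03-fold fall (log2 fold change -1.02, adjusted p = 0.00255). The minor spliceosomal RNA snRNA:U12, which recognises the branch site of the rare U12-type introns, was at 34.1, 37.6 and 45.9 CPM in WT and 17.7, 21 and 21.6 CPM in KD, a 1.95-fold fall (log2 fold change -0.97, adjusted p = 0.000944). The rest of the 12 largest falls were AttB (-1.91), edin (-1.63), MtnA (-1.27), CecC (-1.17), CecB (-1.06), CG43799 (-0.93), lncRNA:CR44814 (-0.91), asRNA:CR43812 (-0.86) and lncRNA:CR43967 (-0.85). By smallest p, the genes called lower were led by arg (arginase), lncRNA:CR43967, CG5958, CG31777 and Lip4, and those called higher by SerT, tef (teflon, which pairs autosomes in male meiosis), SP1173, CBP and CG33462. For arg the values were 33.7, 36.3 and 36.2 CPM in WT and 20.6, 22.8 and 23.5 CPM in KD, a fall of 1.59-fold (log2 fold change -0.67, adjusted p = 0.000263), and for tef they were 14.7, 15.1 and 14.9 CPM in WT and 23.2, 21 and 21.5 CPM in KD, a rise of 1.47-fold (log2 fold change 0.56, adjusted p = 0.000263).

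Of the 165 called genes that the rule named (the 24 above, those with the smallest p and up to 4 for each gene list), 49 passed the test with each of the 6 libraries left out in turn, and 91, 5, 109, 8, 63 and 94 lost the call without KD replicate 1, 2 and 3 and WT replicate 1, 2 and 3. Of the 24 genes, 13 passed the test with each of the 6 libraries left out in turn. With KD replicate 1 left out, 17 of 24 passed, with KD replicate 3 left out 16, with WT replicate 1 left out 23, with WT replicate 2 left out 21 and with WT replicate 3 left out 17. The calls of AttB and edin were lost without KD replicate 3 or WT replicate 3, those of CecC without KD replicate 1, WT replicate 1 or WT replicate 2, and that of CecB without KD replicate 1, KD replicate 3 or WT replicate 3. Those of Nplp1 and CG9782 were lost without KD replicate 3, that of Spn88Eb without KD replicate 1 and that of lncRNA:CR44814 without KD replicate 1 or WT replicate 3. CG43799, sug and 28SrRNA-Psi:CR45859 each lost theirs without KD replicate 1, KD replicate 3 or WT replicate 3, the first and the last also without WT replicate 2.

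**Figure D1:**
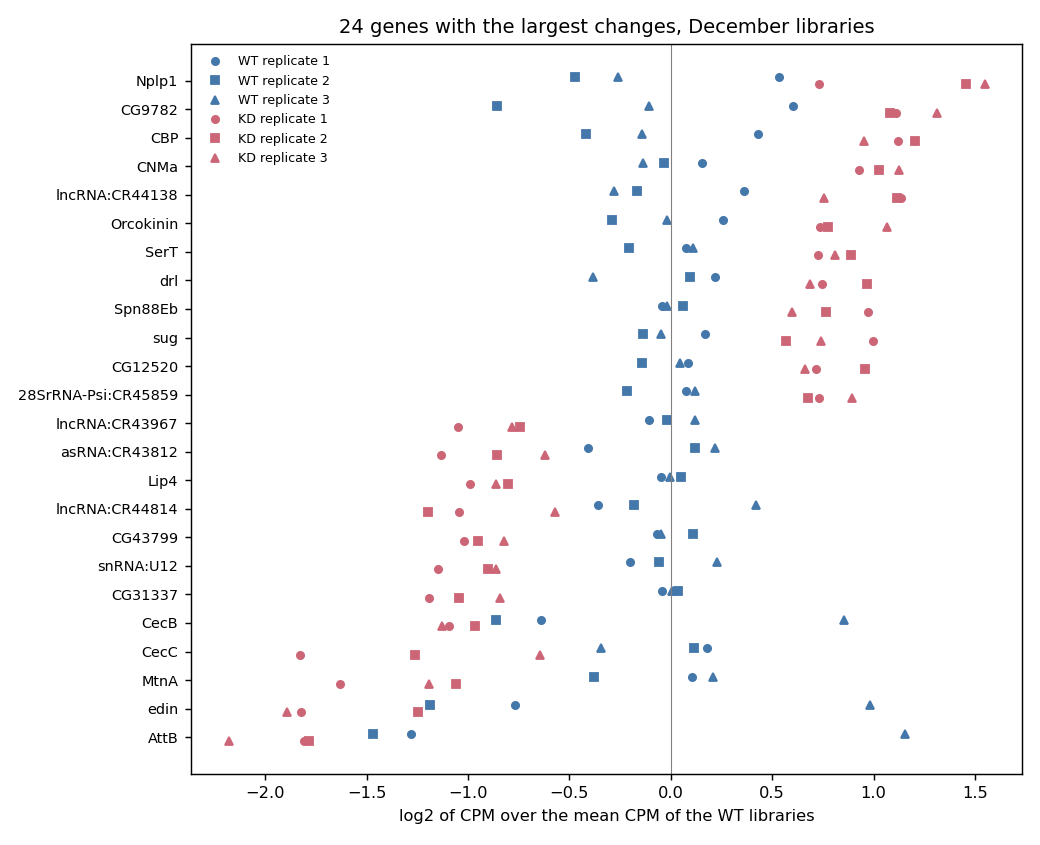
Level of the 24 genes with the largest called changes in each December library, as log2 of the CPM over the mean of the WT libraries (x axis), with WT in blue and KD in red and a marker shape for each replicate number. In every gene the 3 KD points lie on one side of the 3 WT points, which the choice of genes required, and WT replicate 3 stands apart from WT replicates 1 and 2 in AttB, edin and CecB.

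Exon length tracked the direction of change across the transcriptome. The 7051 protein-coding genes with a mean of at least 1 CPM were ordered by summed exon length and divided into deciles. In the shortest decile (258 to 875 bases, 706 genes) 41.9% were called lower and 0.425% higher, with a median log2 fold change of -0.27. In the second decile (875 to 1185 bases) 18.2% were called lower. From the seventh decile on, where exons summed to 2576 bases or more, between 0.709% and 2.13% were lower and between 3.26% and 4.54% were higher. Level changed the share as well, since in the shortest decile 57.2% of the more abundant genes (median 78.3 CPM) and 26.6% of the less abundant genes (median 11.5 CPM) were called lower.

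The same gradient was present in single libraries. In the shortest decile the median log2 level relative to the mean of the 6 libraries was 0.047, 0.163 and 0.195 in WT replicates 1 to 3 and -0.253, -0.0036 and -0.150 in KD replicates 1 to 3. KD replicate 2 and WT replicate 1 lay close together, and KD replicate 1 and WT replicate 3 were the extremes. Leaving out cytoplasmic and mitochondrial ribosomal proteins and the respiratory chain made little difference, since 38.8% of the other 587 genes in the shortest decile were called lower, with a median of -0.25. When a trend of each library on exon length was removed from the counts, 751 of 11168 genes were called (6.72%), 285 higher and 466 lower, of which 527 were shared with the 849. For the gene groups with calls below, the number of these that remained in the same direction with the trend removed is given as the calls kept. Where the number called in a list is given with a library left out, it counts only the direction that most calls of the list took. What sets the gradient was not tested.

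**Figure D2:**
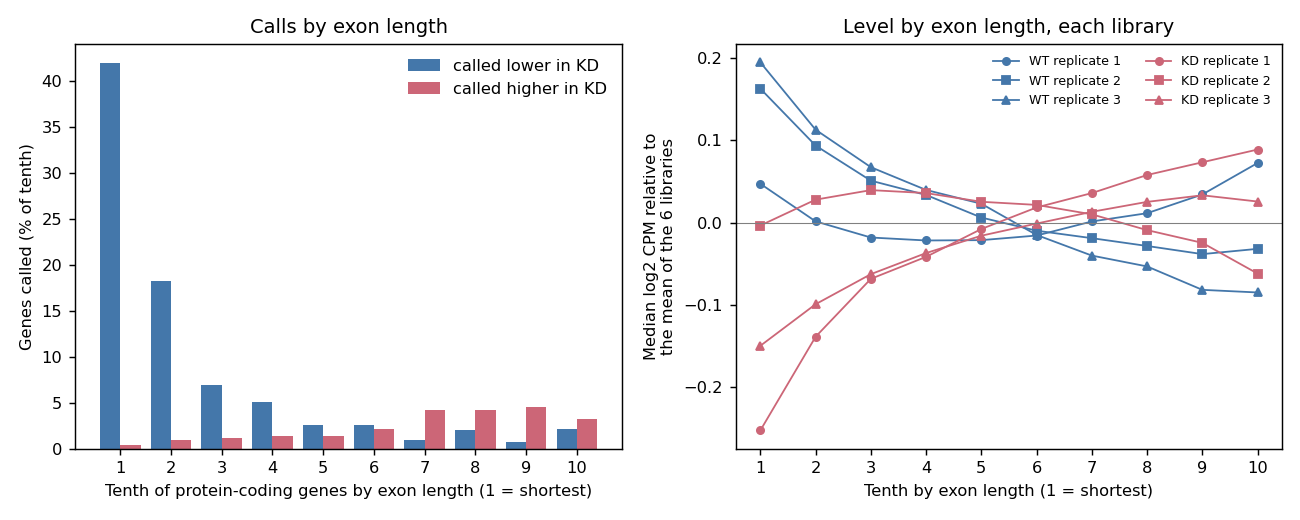
Left, share of protein-coding genes of at least 1 CPM called lower (blue) and higher (red) in KD, in deciles by summed exon length from shortest (1) to longest (10). Right, median log2 CPM of each decile relative to the mean of the 6 libraries, 1 line per library; the share called lower falls from 41.9% in the shortest decile to 2.13% in the longest, and WT replicate 3 and KD replicate 1 are furthest apart at the short end.

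Several iron, copper and zinc genes were lower in KD in December. Metallothioneins bind copper and other metals and ferritin stores iron. MtnA, the main metallothionein, on chromosome 3R from 9783407 to 9784370 on the minus strand, was at 3086, 2209 and 3311 CPM in WT and 927, 1377 and 1256 CPM in KD. The lowest WT library was above the highest KD library, as the choice of genes required, and the fall was 2.42-fold (log2 fold change -1.27, adjusted p = 0.000723). Zip99C, a transporter of the ZIP family that moves iron into the secretory pathway, was at 439, 350.2 and 493 CPM in WT and 257, 283 and 265 CPM in KD (log2 fold change -0.67, adjusted p = 0.000961). The ferritin heavy chain gene Fer1HCH was at 3638, 2810.5 and 3410.2 CPM in WT and 2047, 2422 and 2244 CPM in KD, a fall of 1.47-fold (log2 fold change -0.55, adjusted p = 0.00479). The light chain gene Fer2LCH, which assembles with it in secreted ferritin, changed the same way at a lower level, with 30.1, 24.9 and 24.1 CPM in WT and 18.1, 21.3 and 20.3 CPM in KD (log2 fold change -0.41, adjusted p = 0.00854).

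In all, 5 of 34 metal handling genes tested were lower and 2 were higher, with a median of -0.08, and 5 of these calls remained with the length trend removed. The share called in either direction was 20.6%, against 7.54% of all genes. Leaving out KD replicate 1 made the number called lower 3, against 5 with all libraries. The others, named after their values were seen, were the copper chaperone gene Atox1, lower (-0.32, adjusted p = 0.0284), the zinc transporter gene foi, higher (0.28, adjusted p = 0.0094), and the transferrin gene Tsf1, higher (0.33, adjusted p = 0.0383). For MtnA, Zip99C and Fer1HCH the call held with each library left out, while the call of Fer2LCH was lost without KD replicate 1. In the October libraries MtnA, Fer1HCH and Fer2LCH were instead called higher in KD, at 1.01, 0.20 and 0.29. Zip99C was at -0.07 in October and was not called. The metal-responsive transcription factor gene MTF-1 was at 0.10 (adjusted p = 0.438).

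Some antimicrobial peptide genes were called lower in KD, and most of these calls rested on WT replicate 3 and KD replicate 3. These short secreted peptides are induced by the Imd and Toll pathways. Of 26 genes tested, 9 were lower and 1 was higher, with a median of -0.80, and 10 had a mean of at least 1 CPM. The share called was 38.5%, against 7.54% of all genes. AttB, an attacin, was at 3.28, 2.88 and 17.7 CPM in WT and 2.28, 2.31 and 1.76 CPM in KD (log2 fold change -1.91, adjusted p = 0.0165). The value in WT replicate 3 stood far above the other 5 libraries. The same library was the highest for edin, an infection-induced gene, at 6.24, 4.67 and 21 CPM in WT and 3.01, 4.49 and 2.86 CPM in KD (log2 fold change -1.63, adjusted p = 0.0123), and for the cecropin gene CecB, at 6.55, 5.61 and 18.4 CPM in WT and 4.77, 5.21 and 4.67 CPM in KD (log2 fold change -1.06, adjusted p = 0.0306). In CecC, another cecropin gene, WT replicate 3 was instead the lowest WT library, with 8.9, 8.53 and 6.19 CPM in WT and 2.22, 3.29 and 5.03 CPM in KD (log2 fold change -1.17, adjusted p = 0.02).

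Without WT replicate 3, 2 of the peptide genes were called lower, and without KD replicate 3 also 2, in both cases CecC and Drs. Drs encodes drosomycin, an antifungal peptide and the classical Toll target, and was at 4.52, 3.4 and 4.52 CPM in WT and 2.22, 2.65 and 2.52 CPM in KD (log2 fold change -0.75, adjusted p = 0.00413). Its fall kept an adjusted p below 0.05 with each library left out, although it was named after its values were seen, and was not called with the length trend removed (exon length 387 bases). Without KD replicate 1 the count was 5. With the length trend removed 4 genes were called lower, and 5 of 10 calls in the list were kept. The other called genes, below 2 CPM in most libraries or overlapping, were Mtk, AttC, AttA and DptB, all lower, and BomS1, higher (1.31, adjusted p = 0.0376).

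The pathway genes moved little. Of 34 Toll and Imd genes tested, 1 was lower and 1 higher, a share of 5.88% called against 7.54% of all genes. The lower gene was pirk, a target and inhibitor of the Imd pathway, named after its values were seen, at 27.8, 20.4 and 112 CPM in WT and 21.2, 19.9 and 14.9 CPM in KD (log2 fold change -1.51, adjusted p = 0.0244), and again WT replicate 3 was high while the rest overlapped. The call of pirk was lost without KD replicate 3 or WT replicate 3. The higher gene was Dif, an NF-kB factor of the Toll pathway, at 30.2, 27.6 and 25.2 CPM in WT and 35.9, 30.7 and 34.6 CPM in KD (log2 fold change 0.29, adjusted p = 0.0337). Its call was lost without KD replicate 1, KD replicate 3, WT replicate 2 or WT replicate 3. Both calls were kept with the length trend removed. The Imd transcription factor gene Rel had a log2 fold change of -0.37 (adjusted p = 0.0914), and the receptor gene PGRP-LC one of 0.03 (adjusted p = 0.855).

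**Figure D3:**
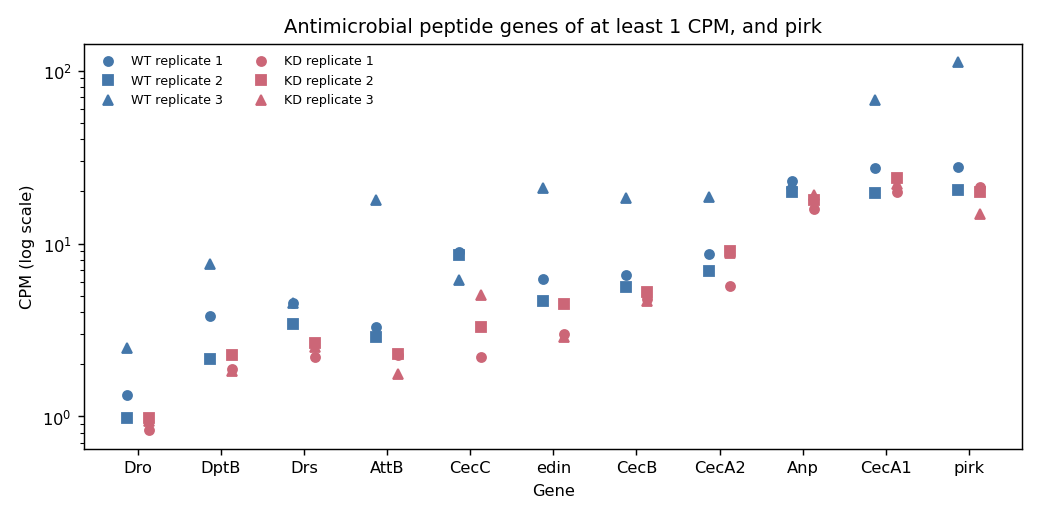
CPM (log scale) of pirk and the antimicrobial peptide genes with a mean of at least 1 CPM in each December library, with WT in blue and KD in red. WT replicate 3 is the highest library for AttB, edin, CecB, CecA1, CecA2, DptB, Dro and pirk, and the lowest WT library for CecC.

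Hemocyte genes had 4 calls, all lower. Of 32 genes of hemocyte identity and phagocytosis tested, 4 were lower (12.5%, against 5.69% of all genes) and none was higher, with a median of -0.05. Hemolectin (Hml), a clotting protein, was at 339, 262 and 263 CPM in WT and 222, 206 and 222 CPM in KD (log2 fold change -0.41, adjusted p = 0.00929). Hemese (He), a surface glycoprotein, was at 2.37, 2.44 and 2.37 CPM in WT and 1.41, 1.66 and 1.21 CPM in KD (log2 fold change -0.75, adjusted p = 0.00879). Both calls were lost without KD replicate 3. Fer1HCH, given above, and the prophenoloxidase gene PPO1 (-0.89, adjusted p = 0.0354, named after its values were seen), completed the calls, and the master regulator gene srp was at 0.01 (adjusted p = 0.958). Calls in the list numbered 2 without KD replicate 3. The calls kept without the length trend were 3 of 4.

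Matrix and serpin genes had 3 calls each, 10.7% and 15.8% of those tested against 7.54% of all genes. Glt (glutactin), a basement membrane glycoprotein, was at 73.8, 72.7 and 69.4 CPM in WT and 54.5, 49.4 and 50.8 CPM in KD (log2 fold change -0.48, adjusted p = 0.00229). Timp, an inhibitor of matrix metalloproteinases, was at 3.51, 2.61 and 2.91 CPM in WT and 3.98, 4.49 and 5.49 CPM in KD (log2 fold change 0.63, adjusted p = 0.00949), with a call lost without KD replicate 3. Perlecan (trol) rose by 0.26 on the log2 scale (adjusted p = 0.0306). The calls in the matrix list were therefore 2 higher and 1 lower of 28 tested. Among 19 serpins, Spn88Eb rose by 0.78 while Spn27A (-0.28), which restrains the Toll and melanization proteases, and Spn77Ba (-0.25) fell. All 6 calls in these lists were kept with the length trend removed. The calls of trol, Spn27A and Spn77Ba were lost without KD replicate 1, KD replicate 3 or WT replicate 3.

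A few neuropeptide precursor genes were called higher, from low levels. In nerve cells such precursors are cleaved into peptide hormones. A list of the known precursor genes, added after the values were seen, had 23 genes tested, of which 5 were higher and none was lower, with a median of 0.30. That was 21.7% called higher, against 1.85% of all genes. CNMa was at 1.06, 0.929 and 0.864 CPM in WT and 1.81, 1.94 and 2.07 CPM in KD (log2 fold change 1.03, adjusted p = 0.0027). Orcokinin was at 3.51, 2.41 and 2.9 CPM in WT and 4.89, 5.02 and 6.15 CPM in KD (log2 fold change 0.87, adjusted p = 0.00479). AstA (allatostatin A) was at 8.81, 9.37 and 9.12 CPM in WT and 12.4, 13 and 11.4 CPM in KD (log2 fold change 0.43, adjusted p = 0.00365).

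In CNMa, Orcokinin and AstA the lowest KD library was above the highest WT library, which the rule that named them required. Dsk (drosulfakinin) was at 0.182, 0.0229 and 0.111 CPM in WT and 0.513, 0.587 and 0.498 CPM in KD, close to the limit of detection (log2 fold change 2.33, adjusted p = 0.0107), and was named after its values were seen. All 5 calls remained with the length trend removed. When KD replicate 3 was left out, the list had 3 called. Of the amine genes, SerT rose (above) and the vesicular transporter gene Vmat fell (log2 fold change -0.34, adjusted p = 0.0483, a call lost without any of KD replicate 1, KD replicate 3, WT replicate 1, WT replicate 2 and WT replicate 3). The neuron marker list, which contains none of these precursors, had 0 of 8 genes called by edgeR, 0 with an unadjusted p below 0.05 and 0 by DESeq2.

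A minority of glycolysis and glycogen genes were called higher, by small amounts. Ldh, lactate dehydrogenase, was at 164, 132 and 171 CPM in WT and 189.8, 197 and 203 CPM in KD (log2 fold change 0.33, adjusted p = 0.0185). Gpo1, the mitochondrial glycerol-3-phosphate dehydrogenase that shuttles electrons from glycolysis, was at 61.4, 47.2 and 50.9 CPM in WT and 80.9, 82 and 86.6 CPM in KD (log2 fold change 0.65, adjusted p = 0.000944). The rate-limiting enzyme gene Pfk rose by 0.26 (adjusted p = 0.0265). Together 3 of 19 glycolysis genes tested were higher (15.8%, against 1.85% of all genes) and none was lower, with a median of 0.07. Abundant members such as Eno (-0.12) and Pgk (-0.16) did not pass the test. In all, 7 of the glycolysis genes had a log2 fold change below 0. The list had 1 and 1 called without KD replicate 3 and WT replicate 2, respectively. All 3 calls were kept with the length trend removed.

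Glycogen and trehalose genes, a list added after the values were seen, had 4 of 13 higher (30.8%, against 1.85% of all genes) and none lower, with a median of 0.15. They were Glyp (glycogen phosphorylase, 0.29), Gyg (glycogenin, 0.34), Treh (trehalase, 0.27) and Gbs-70E (a glycogen-targeting subunit of protein phosphatase 1, 0.25). Nearby in metabolism, PCB (pyruvate carboxylase) rose by 0.42 (adjusted p = 0.00553) and Men (malic enzyme) by 0.34 (adjusted p = 0.015, lost without KD replicate 1, KD replicate 3 or WT replicate 2). All 4 glycogen calls remained with the length trend removed. Leaving out KD replicate 1, KD replicate 3, WT replicate 2 and WT replicate 3 made the number of calls in the list 0, 0, 0 and 1, respectively. Hph, the prolyl hydroxylase that marks the hypoxia factor Sima for decay, named after its values were seen, was at 44.9, 46.4 and 48.7 CPM in WT and 60.6, 63.3 and 65.9 CPM in KD (log2 fold change 0.44, adjusted p = 0.000961), and sima was at 0.13 (adjusted p = 0.389).

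Apoptosis genes had 4 calls, all higher, while no small heat shock or ER chaperone gene was called by edgeR. Of 27 apoptosis genes tested, 4 were higher (14.8%, against 1.85% of all genes) and none was lower, with a median of 0.04. These were the pro-apoptotic gene rpr (0.27), Traf4 (0.32), and the REDD1-type inhibitors of TOR scyl (0.34) and chrb (0.32). scyl was at 51.5, 43.2 and 43.6 CPM in WT and 57.3, 58.4 and 59.97 CPM in KD, and all KD libraries were higher, as the choice of genes required. Calls in the list numbered 2, 0 and 1 without KD replicate 1, KD replicate 3 and WT replicate 3, respectively. The call of rpr was lost without any of the 6 libraries except WT replicate 1. With the length trend removed 3 of the 4 calls remained. Of 8 small heat shock genes 0 were called by edgeR (2 at an unadjusted p below 0.05, 0 by DESeq2), and of 24 genes of ER chaperones and the unfolded protein response also 0 (7 and 1).

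Single small RNA and growth factor genes were called higher. In the small RNA list, 3 of 28 genes were higher and none was lower, namely spn-E, a piRNA helicase, with 5.66, 5.53 and 4.73 CPM in WT and 7.53, 7.59 and 7.76 CPM in KD (log2 fold change 0.52, adjusted p = 0.00385), the Rhino cofactor gene del (0.38, adjusted p = 0.0125) and nxf2 (0.34, adjusted p = 0.00879), which acts in piRNA-guided silencing. When KD replicate 1 and WT replicate 3 were each left out, the list had 1 and 1 called, respectively. All 3, a share of 10.7% against 1.85% of all genes called higher, were kept with the length trend removed. In the list of PDGF/VEGF receptor and EGF receptor/Ras signalling 3 of 36 genes were higher and 1 was lower, a share of 11.1% called against 7.54% of all genes. Here htl, an FGF receptor, rose by 0.46 (adjusted p = 0.0027), bnl, an FGF ligand, by 0.28 and vn, a ligand of the EGF receptor, by 0.31, while the ERK gene rl fell by 0.30. In the list of Wnt, Hedgehog, BMP and Hippo signalling 3 of 50 were higher and 0 lower, a share of 6.0% called against 7.54% of all genes in either direction and 1.85% higher. Of these daw, an activin-like ligand, rose by 0.57 (adjusted p = 0.00243), brk, a repressor of Dpp targets, by 0.28 and cos by 0.22. The calls of bnl, vn and cos were lost with the length trend removed (adjusted p = 0.0682, 0.0801 and 0.0637). In the list of JAK/STAT and stress cytokine signalling 2 of 34 were higher and 1 lower (8.82% called, against 7.54% of all genes), and 2 of 3 calls were kept with the length trend removed. Socs36E, an inhibitor of this pathway, rose by 0.35 (adjusted p = 0.00385). Of the genes in this paragraph spn-E, htl, daw and Socs36E passed with each library left out, and the others lost the call without 1 or more of KD replicate 1, KD replicate 3, WT replicate 2 and WT replicate 3.

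Several ribosomal, RNA polymerase II and prefoldin subunit genes were called lower. Cytoplasmic ribosomal proteins (40 of 86 tested), mitochondrial ribosomal proteins (31 of 73) and the nuclear respiratory chain (23 of 82) held the largest numbers, and the lists described here lie outside them. Their shares were 46.5%, 42.5% and 28.0%, against 5.69% of all genes and 41.9% of the shortest decile of protein-coding genes. With the length trend removed 26, 9 and 13 of their calls remained. Their median log2 fold changes were -0.283, -0.233 and -0.163 in December and 0.233, -0.0964 and -0.155 in October. The cytoplasmic list thus had the opposite sign in October. For the cytoplasmic ones, without KD replicate 1, KD replicate 3, WT replicate 2 and WT replicate 3 the number was 6, 5, 21 and 7, respectively. RNA polymerase II core subunits, a list added after the values were seen, had 6 of 11 lower and none higher (median -0.30). That was 54.5%, against 5.69% of all genes, in a list with a median exon length of 759 bases. They were Polr2F, Polr2G, Polr2H, Polr2J, Polr2K and Polr2L. Polr2L was at 114, 119 and 131 CPM in WT and 71.9, 93.1 and 87.8 CPM in KD (log2 fold change -0.52, adjusted p = 0.00686), and KD replicate 2 was the KD library nearest to WT. The pause factor gene spt4, which joins Spt5 on the polymerase, was also lower (-0.43). Its call was lost with the length trend removed (-0.10, adjusted p = 0.233) and without KD replicate 1, KD replicate 3 or WT replicate 3. Of the 6 core subunit calls 1 remained with the length trend removed. The core subunit list had 2, 2, 2 and 2 called without KD replicate 1, KD replicate 3, WT replicate 2 and WT replicate 3, respectively. The wider list of RNA polymerase II transcription and elongation had 7 of 48 genes lower (14.6%) and none higher. Its median was 0.04, with 17 members below 0, and 1 of its 7 calls was kept with the length trend removed.

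Prefoldin, the hexamer that passes unfolded actin and tubulin to the chaperonin, was lower in 5 of its 6 subunit genes (added after the values were seen, median -0.37). The share was 83.3%, against 5.69% of all genes, at a median exon length of 870.5 bases. Pfdn1 was at 161, 179.8 and 186 CPM in WT and 117, 147 and 129 CPM in KD (log2 fold change -0.43, adjusted p = 0.00968). With the length trend removed 3 of the prefoldin calls remained, and that of Pfdn1 was lost (adjusted p = 0.0561). Leaving out KD replicate 1, KD replicate 3, WT replicate 2 and WT replicate 3 made the number of calls in the list 0, 0, 3 and 0, respectively. The wider list of TRiC chaperonin and prefoldin genes had 5 of 14 lower (35.7%) and none higher, with a median of -0.10.

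The ESCRT genes, which sort membrane proteins into multivesicular bodies (list added after the values were seen), had 6 of 18 lower and none higher, with a median of -0.21. The share lower was 33.3%, against 5.69% of all genes. CHMP2B was at 60.2, 65.3 and 63.2 CPM in WT and 44.1, 52.4 and 48.8 CPM in KD (log2 fold change -0.38, adjusted p = 0.00729), the only one of them called with each library left out, and Vps25, Vps36, Vps60, Chmp1 and Vps37B were called beside it. Of these calls 4 remained with the length trend removed. Calls in the list numbered 1, 10, 1, 3 and 1 without KD replicate 1, KD replicate 2, KD replicate 3, WT replicate 2 and WT replicate 3, respectively.

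Secretory, translation and splicing lists had single members called lower, 13.3%, 8.93% and 10.3% of those tested against 5.69% of all genes. Of 60 vesicle coat, Golgi and ER translocation genes 8 were lower, among them the GTPase gene Arf4 (log2 fold change -0.47, adjusted p = 0.00929), the COPI coat genes epsilonCOP (-0.37) and zetaCOP (-0.35), and the p24 cargo receptor gene CHOp24 (-0.35). When KD replicate 1, KD replicate 2, KD replicate 3, WT replicate 2 and WT replicate 3 were each left out, the list had 0, 14, 0, 2 and 0 called, respectively. Of 56 translation factors 5 were lower, led by eIF1, which acts in the search for the start codon, at 1245, 1386 and 1398 CPM in WT and 859, 1080.4 and 959 CPM in KD (log2 fold change -0.48, adjusted p = 0.00686), and eEF5 (-0.37). For translation factors without KD replicate 1, KD replicate 3, WT replicate 2 and WT replicate 3 the number was 1, 0, 2 and 1, respectively. In October eIF1 was called lower as well (-0.31). The genes eEF5, eIF3m and eEF1beta, all called lower in December, were called higher in October (0.15, 0.79 and 0.40). Of 39 Sm and snRNP protein genes 4 were lower, namely LSm3 (-0.43), LSm7 (-0.40), Sf3b5 (-0.40) and SmD1 (-0.33). For this list without KD replicate 1, KD replicate 2, KD replicate 3, WT replicate 1, WT replicate 2 and WT replicate 3 the number was 0, 11, 0, 8, 2 and 0, respectively. The ER membrane complex, which inserts membrane proteins (list added after the values were seen), had EMC4, EMC5 and EMC6 lower among 10 tested. For these without KD replicate 1, KD replicate 3, WT replicate 1 and WT replicate 3 the number was 0, 0, 5 and 0, respectively. The calls kept with the length trend removed were 4 of 8 for the secretory list, 2 of 5 for translation factors, 2 of 4 for Sm and snRNP proteins and 1 of 3 for the ER membrane complex.

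Of 47 actin cytoskeleton genes 4 were lower and 0 higher, a share of 8.51% against 5.69% of all genes called lower. These were the Arp2/3 subunit genes Arpc3B (-0.34), Arpc4 (-0.37) and Arpc5 (-0.26) and the spectrin gene kst (log2 fold change -0.31, adjusted p = 0.0321), whose exons sum to 14454 bases. Without KD replicate 2, KD replicate 3, WT replicate 1, WT replicate 2 or WT replicate 3 the call of kst was lost. The 3 Arp2/3 calls were lost with the length trend removed (adjusted p = 0.167, 0.103 and 0.171). For the actin list, without KD replicate 1, KD replicate 3, WT replicate 2 and WT replicate 3 the number was 2, 0, 1 and 1, respectively.

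**Figure D4:**
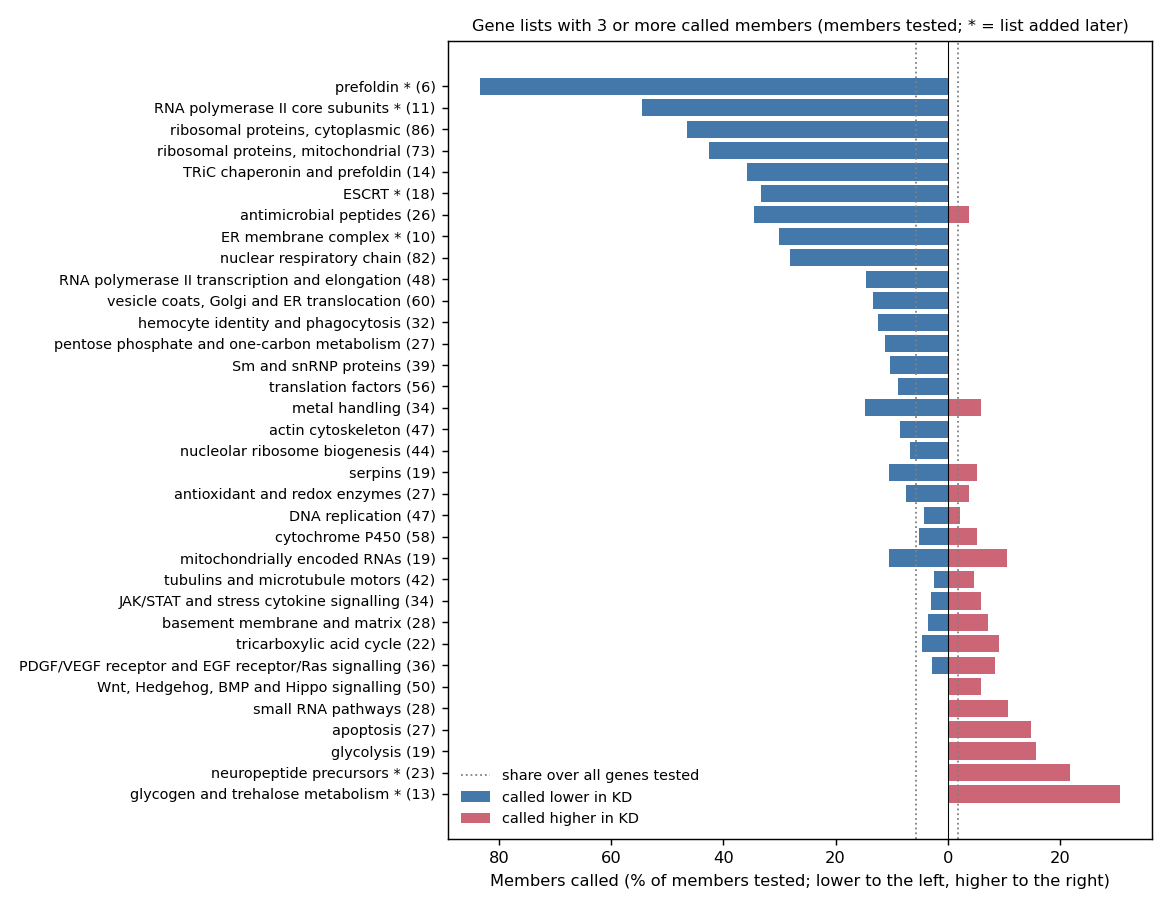
Share of tested members called lower (blue, to the left) and higher (red, to the right) for each gene list with 3 or more called members, with the number of members tested in parentheses and dotted lines at the shares over all genes tested (5.69% lower and 1.85% higher). Prefoldin, RNA polymerase II core subunits and ribosomal proteins have the largest shares called lower, and glycogen and trehalose genes and neuropeptide precursors the largest shares called higher; lists marked with a star were added after the values were seen.

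Non-coding RNAs gave few calls. The host transcripts of snoRNAs Uhg4 (log2 fold change -0.50, adjusted p = 0.0175) and Uhg3 (log2 fold change -0.38, adjusted p = 0.0256) were lower, while none of the 112 snoRNAs annotated as such was called, at a median of -0.33 over these genes, many of them at low counts. Neither Uhg call held with the length trend removed, and both were lost without KD replicate 1, KD replicate 3 or WT replicate 3. lncRNA:roX2, an RNA of the dosage compensation complex, was at 136, 138 and 151 CPM in WT and 86.1, 116 and 108 CPM in KD (log2 fold change -0.46, adjusted p = 0.0253), a call lost without KD replicate 1, KD replicate 3, WT replicate 2 or WT replicate 3. Because the sources used here do not state strand use in the counting, asRNA:CR43812 cannot be separated from its partner on the other strand.

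The list of PARP and NAD genes had 2 calls, both lower, and Parp1 was not called. That was 13.3% of those tested, against 5.69% of all genes called lower. Log2 fold changes in the list lay between -1.195 and 0.170. Of 15 genes tested, 2 were lower: Sirt6, a histone deacetylase that uses NAD+, at 16, 15.7 and 16.2 CPM in WT and 12, 13.4 and 11.6 CPM in KD (log2 fold change -0.37, adjusted p = 0.00929), and Targ1, which removes ADP-ribose from proteins (log2 fold change -0.34, adjusted p = 0.0256). Parg, which degrades poly(ADP-ribose) chains, was at -0.04 (adjusted p = 0.85). The call of Sirt6 was lost without KD replicate 3 or WT replicate 3 and that of Targ1 without KD replicate 1, KD replicate 3, WT replicate 2 or WT replicate 3. Of 62 DNA damage and repair genes 1 was lower (Irbp18, -0.38) and none higher, and of 65 Polycomb and Trithorax genes 1 was lower, pho (log2 fold change -0.37, adjusted p = 0.0186), the DNA-binding recruiter of Polycomb complexes. These shares were 1.61% and 1.54%, against 7.54% of all genes called. In the fit without the length trend 1 of 2 PARP and NAD calls and the call of pho were kept, and that of Irbp18 was not. The calls of Irbp18 and pho were lost without KD replicate 1, KD replicate 3 or WT replicate 3, and that of pho also without WT replicate 2.

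Some large functions gave no call. Of 39 proteasome genes, which degrade ubiquitin-tagged proteins, 0 were called by edgeR, 6 had an unadjusted p below 0.05 and 3 were called by DESeq2. Of 36 aminoacyl-tRNA synthetase genes 0 were called (7 and 0), of 38 genes of RNA decay and deadenylation 0 (3 and 0) and of 22 genes of integrins and focal adhesion 0 (1 and 0). Their median log2 fold changes were -0.02, -0.03, 0.04 and -0.02.

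The October libraries gave a second measurement of the same contrast. There, 3364 of 12096 genes (27.8%) were called. Of the 848 December calls tested in October, 581 had the same direction there, 293 of them with an adjusted p below 0.05, while 114 were called in the opposite direction. The same direction was found in 467 of 640 genes lower in December and in 114 of 208 higher ones, and the difference between these shares was not tested. The interaction of KD and month was called in 1784 of 12652 genes (14.1%) and in 416 of the December calls. Month and any other difference between the 2 sets of libraries cannot be told apart.

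Of the 24 genes with the largest changes, 13 had the opposite sign in October. MtnA had a log2 fold change of 1.01 in October, against -1.27 in December, and the difference passed the interaction test (adjusted p = 3.38e-10). AttB, edin, CecC and CecB, which were lower in December, were at 0.47, 1.01, 0.28 and 0.16 in October. Rises in CNMa and SerT were not shared, with -1.20 and -0.27 in October. Nplp1 (1.69), CG9782 (1.03), CBP (0.88), Spn88Eb (0.56) and 28SrRNA-Psi:CR45859 (0.69) had a rise in both months, and Lip4 (-0.83) and snRNA:U12 (-0.53) a fall in both. Beyond the 24 genes, several genes described above were called in the opposite direction in October, as were 29 of the 165 called genes that the rule named. Among them daw was at -1.16 in October, Timp at -0.81, scyl at -0.42 and rpr at -0.23, all higher in December. Glt was at 0.98, Fer1HCH at 0.20, Fer2LCH at 0.29 and kst at 0.53, all lower in December. The interaction test was passed by each of these 8 genes, with adjusted p-values between 6.47e-10 and 0.00027. Exon length had a gradient there as well, with a median of -0.15 in the shortest decile and 0.10 in the longest.

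**Figure D5:**
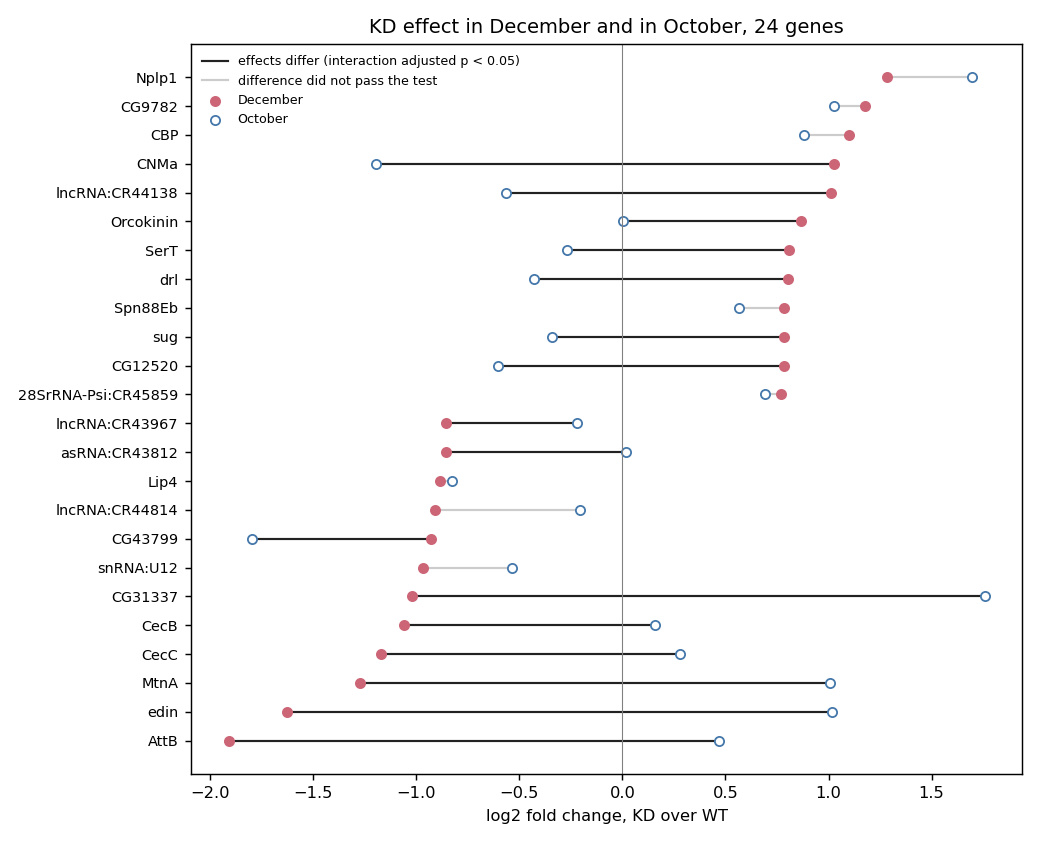
Log2 fold change of KD over WT (x axis) for the 24 genes with the largest December changes, in December (filled red) and October (open blue), with a dark line where the interaction of KD and month had an adjusted p below 0.05. Metallothionein and antimicrobial peptide genes lie on opposite sides of 0 in the 2 months, while Nplp1, CBP, CG9782 and Lip4 lie on the same side.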

How the data were processed

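RNA of S2 cells was ribosome-depleted and sequenced in paired ends. Per the labels and their processing notes, the authors checked reads with FastQC 0.10.1, aligned them to BDGP6 with STAR 2.6, counted them per gene with HTSeq 0.10.0 and deposited raw counts, which carry no normalization or filter. The sources used here do not state the annotation release, the strand setting or how multiply aligned reads were handled. Of 17737 genes, 17599 matched the Ensembl annotation of BDGP6 by identifier, which gave symbols, positions and exon lengths.

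From these counts, genes with fewer than 10 over the 6 WT and KD libraries were left out, counts were scaled by TMM, and KD was tested against WT by the quasi-likelihood test of edgeR 4.0.16 in R 4.3.3 (Benjamini-Hochberg adjustment, threshold 0.05) in 1 model of the 9 December libraries. The 7 WT and KD libraries of October were fitted alone, and the interaction of KD and month over all 13. CPM are on the December TMM scale.

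Genes named by rule were Parp1, the 12 largest rises and falls among genes that were called, averaged 1 CPM or more and had no overlap of KD and WT, the 5 smallest p in each direction, and up to 4 genes a list under the same conditions. The members, the 70 lists, the tests and the alternatives were chosen with earlier results of these data known, and 6 more lists were added after the values were seen. No set test was run. Alternatives were DESeq2 (1.42.0), RLE scaling, library sizes without the 20 most counted genes, other filters, the 6 libraries alone, a replicate block, removal of an exon length trend (a spline with 5 degrees of freedom, fitted per library) and leaving out each library.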

Additional observations from a re-analysis of the deposited data

Results flagged for a closer look

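For 16 of the 25 genes made up of Parp1 and the 24 with the largest December changes, the KD effect differed between December and October by the interaction test (edgeR's quasi-likelihood test, adjusted p below 0.05). The interaction is given as the December minus the October log2 fold change. Among genes higher in December it was 2.22 for CNMa, 1.57 for lncRNA:CR44138, 0.86 for Orcokinin, 1.07 for SerT, 1.22 for drl, 1.12 for sug and 1.38 for CG12520. These include neuropeptide genes (CNMa, Orcokinin) and the serotonin transporter gene SerT. Among genes lower in December it was -2.39 for AttB, -2.65 for edin, -2.29 for MtnA, -1.46 for CecC, -1.23 for CecB, -2.78 for CG31337, -0.88 for asRNA:CR43812 and -0.64 for lncRNA:CR43967. CG43799 was lower in both months, by more in October, with an interaction of 0.86. The month and any other difference between the 2 sets of libraries cannot be told apart.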

How the results depend on the processing

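The number of genes called, 849 (208 higher, 641 lower), was 1304 (1035 higher, 269 lower) with library sizes taken without the 20 most counted genes. Of the 849 calls 477 were kept in the same direction at that scaling (56.2%). The secretory, actin and hemocyte lists then had 1, 1 and 2 called lower, against 8, 4 and 4. Glycolysis and glycogen lists had 6 and 7 called higher, against 3 and 4, while the antimicrobial list stayed at 9 lower. Leaving out each WT, KD or PARPi library in turn gave between 179 and 1153 calls, between 70 and 285 of them higher and between 109 and 903 lower. DESeq2 gave 1094 calls, RLE scaling 886, no filter on counts 1234, the filter of edgeR 844 and the WT and KD libraries alone 1068. With the length trend removed, 8 of the 849 genes had the opposite sign and 6 were not tested, and under the alternatives without that trend 0 had it. A fit with the replicate number as a block called 1563 (394 higher, 1169 lower) genes, and with the length trend removed as well 1087 (415 higher, 672 lower). Same-numbered libraries are not known to be paired, and the correlations of their deviations were 0.254, 0.00541 and -0.0614. KD replicate 2 correlated best with WT replicate 3, so not every library correlated best with its own number. Of the 24 genes with the largest changes, AttB, CecC and CecB were not called by DESeq2 (-1.91, -1.16 and -1.05 on the log2 scale). With the length trend removed CecC, CecB and lncRNA:CR44814 were not called (-0.82, -0.69 and -0.52), and with the block added CecB and lncRNA:CR44814 (-0.57 and -0.52), while Parp1 was called there (-0.20). The causes were not tested.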
